A study of Capra hircus with 6 samples.

Results

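Hair grows because keratinocytes of the hair matrix, at the base of the follicle, divide rapidly before they differentiate into the inner root sheath and the keratin-filled shaft. The genes described here encode the machinery of that division. They comprise 39 genes chosen by symbol, of 26950 genes in the deposited table: 15 S-phase genes and 24 mitosis genes. The S-phase genes load and run the replication fork, supply it with nucleotides or, as E2F1 and CCNE2, act at the G1/S transition. The mitosis genes drive entry into mitosis, build the spindle, check chromosome attachment and divide the cell. All 39 symbols were present and all 39 had enough reads to be tested. S-phase genes are largely switched on by E2F transcription factors at the G1/S boundary, and mitosis genes later, in G2, so the lists mark successive phases of the cycle.

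Total RNA depleted of ribosomal RNA was sequenced from skin with its hair follicles of crossbred goats (Boer and Macheng Black) that carry black hair on the head and white hair on the body. The 3 libraries from black-coated skin are called black replicates 1, 2 and 3, and the 3 from white-coated skin white replicates 4, 5 and 6. With black hair on the head and white hair on the body, coat colour and site cannot be told apart. Neither the body site of each library nor the number or age of the animals is given. The p-values therefore reflect nothing more than the spread between these samples, some of which may be technical. Reads of LOC108634721, described as Y-linked, numbered 1, 688 and 0 in black replicates 1, 2 and 3, against 934, 801 and 767 in white replicates 4, 5 and 6, which shows that more than 1 animal gave the black libraries. By this gene, sex was not balanced between the groups: all white libraries had such reads, while black replicates 1 and 3 had 1 and 0. The part of sex in the differences was not tested.

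Reads assigned to named genes ran from 12648451 to 22084141 in black libraries and from 14678911 to 17259741 in white libraries. The 39 genes took 850, 1769 and 1431 CPM before scaling in black replicates 1, 2 and 3, against 1095, 1487 and 1314 in white replicates 4, 5 and 6. Single genes had between 32 and 3454 reads in a library. All later levels are in CPM (counts scaled to the TMM-adjusted library size), in FPKM where genes of different length are compared, and log2 fold changes have black-coated skin on top and carry a standard error (SE). Black replicate 1 stood apart from the other 5 libraries: its hair keratin genes summed to 2000.2 CPM, against 20499.8 to 48621 CPM in the others. Pigment cell markers summed to 168, 995 and 1161 CPM in the black libraries and to 114, 101 and 91.97 CPM in the white libraries, where TYR and MLANA had 0 reads. List medians, spans and counts of genes called or higher in black-coated skin are also given without it. In whole skin, fewer dividing cells and less of a transcript per dividing cell cannot be told apart.

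No difference between black-coated and white-coated skin in the 39 genes passed the test against the spread between libraries. Of the 39 genes, 0 were called by edgeR's quasi-likelihood test at an adjusted p of 0.05 (0% of the 15777 genes tested were called), and 0 were called by DESeq2, which called 0.496% of genes. At an unadjusted p under 0.05, edgeR gave 1 of the 39 (CENPE), against 3.40% of all genes tested. The median log2 fold change was 0.15 for the S-phase genes and 0.07 for the mitosis genes, beside 0.02 over all genes tested, and 25 of the 39 had their higher mean in black-coated skin, as did 53.0% of all genes tested. The groups overlapped in 38 of the 39, while 8.80% of all genes tested had groups without overlap. In MCM2, MCM4, CDC6, E2F1, MKI67, AURKA and ANLN, black replicates 2 and 3 both lay above all white libraries, so the overlap came from black replicate 1 alone. The share of all genes without overlap was not taken without that library. Without black replicate 1 the medians were 0.40 for each list and 36 of the 39 had their higher mean in black-coated skin (49.7% of all genes). None of them was called then (0.0999% of all genes were), and 6 had an unadjusted p under 0.05 (5 higher and 1 lower in black-coated skin), against 10% of all genes. Without black replicate 2 the medians were -0.22 for the S-phase genes and -0.45 for the mitosis genes, and 3 of the 39 had their higher mean in black-coated skin (51.1% of all genes). Again 0 were called (0.0369% of all genes were), and 1 had an unadjusted p under 0.05, against 4.49% of all genes.

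The black libraries lay farther apart than the white ones: summed CPM was 629 ± 220.3 in black-coated skin, against 583 ± 52.7 in white-coated skin for the S-phase genes, and 758 ± 415 in black-coated skin, against 727 ± 159 in white-coated skin for the mitosis genes (SD, n = 3 each). Black replicate 1 was the lowest of the 6 libraries in 35 of the 39 genes, against 30.3% of all genes tested. Black replicate 2 was the highest in 32 of the 39, against 18.5%, and both held in 30 of the 39, against 9.26%. Black replicate 3 lay within the range of the white libraries in 27 of the 39, against 40.7% of all genes. Among the white libraries replicate 4 was the lowest in 36 of the 39 genes and in all 24 mitosis genes, against 38.7% of all genes tested. These counts describe the libraries and not the coat colours.

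**Figure D1:**
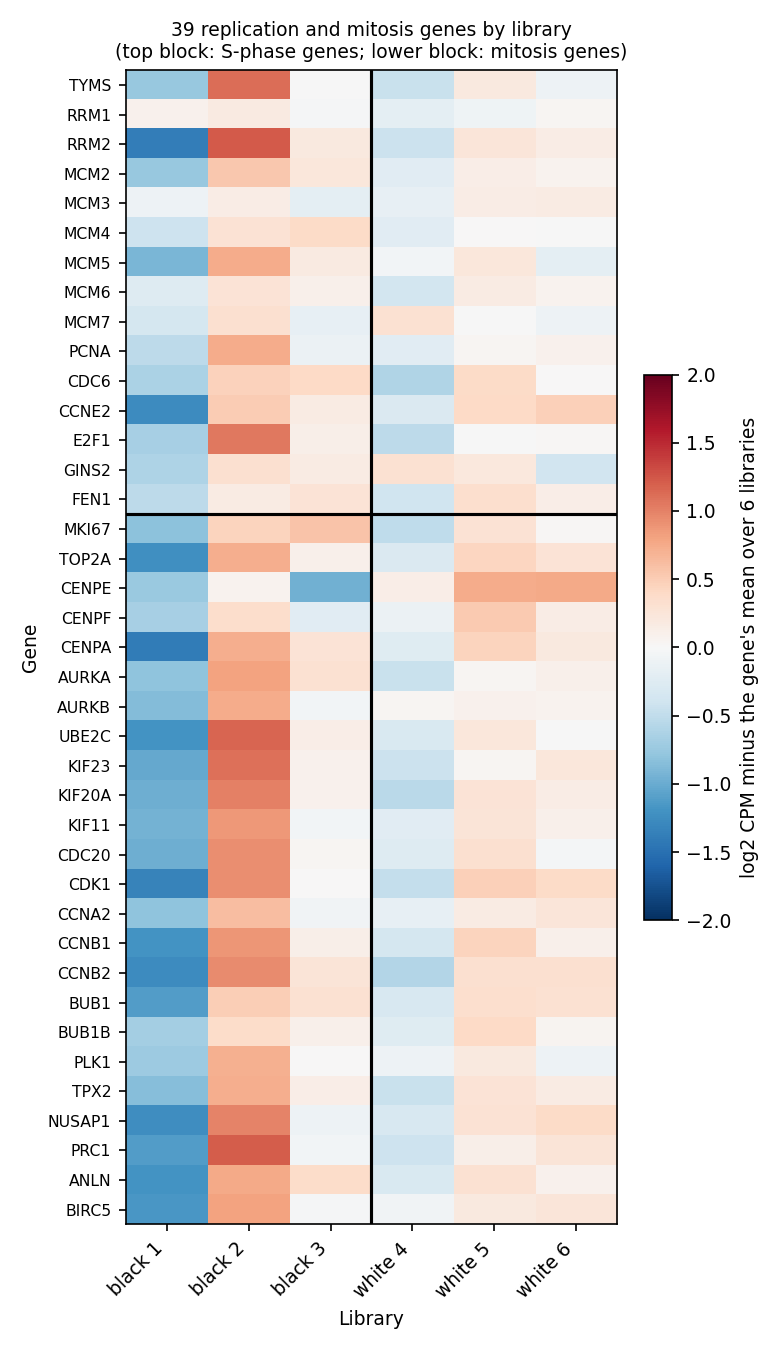
Level of each of the 39 genes in each library, as log2 CPM minus the mean of that gene over the 6 libraries (red higher, blue lower), with S-phase genes above the horizontal line and mitosis genes under it, and black libraries left of the vertical line. Black replicate 1 is lowest in 35 of the 39 genes and black replicate 2 highest in 32, while CENPE departs from the other mitosis genes.

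Among the genes of the G1/S transition and of replication origins, E2F1 and CDC6 varied with the library and the MCM subunits were uneven. E2F1, the transcription factor that turns on S-phase genes, stood at 4.97, 16.3 and 8.49 CPM in black replicates 1, 2 and 3 and at 5.46, 7.75 and 7.94 CPM in white replicates 4, 5 and 6. Its log2 fold change of 0.49 (SE 0.45, edgeR adjusted p = 1.0) was the farthest from 0 of the S-phase genes. The black libraries enclosed the white range, with black replicate 2 alone far above it. CDC6, which loads the MCM helicase onto origins, had 2.27, 4.88 and 4.63 CPM in the black libraries and 2.33, 4.58 and 3.54 CPM in the white libraries. With 32 reads in black replicate 1, its level there had a 95% counting interval of 1.55 to 3.21 CPM, which takes in the level of white replicate 4. CCNE2, a cyclin of the G1/S transition, had 2.41, 8.25 and 6.45 CPM in the black libraries, against 4.72, 7.58 and 8.08 CPM in the white libraries. Only black replicate 1 lay outside the range of the other 5 by more than its counting interval, which ran from 1.67 to 3.37 CPM.

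The 6 subunits of the MCM2-7 helicase, which unwinds DNA ahead of the fork, are needed as 1 ring, yet their transcripts differed in level and in how far they followed the library. In FPKM, MCM7 was the most abundant subunit in each of the 6 libraries, at 28.4 ± 3.36 in black-coated skin, against 29.7 ± 5.42 in white-coated skin (SD, n = 3 each). MCM4 averaged 8.77 ± 2.21 FPKM in black-coated skin, against 7.51 ± 0.437 in white-coated skin. MCM5 stood at 19.4, 61.5 and 41.8 CPM in black replicates 1, 2 and 3 and at 35.4, 43.1 and 32.0 CPM in white replicates 4, 5 and 6. MCM2 followed the same library order within the black group, with 24.3, 59.7 and 48.2 CPM, against 35.1, 44.9 and 43.0 CPM in the white libraries. In both of these subunits black replicate 1 was the lowest library and black replicate 2 the highest, and the groups overlapped.

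In black replicate 1 the other MCM subunits lay less far below the other libraries than MCM2 and MCM5, and MCM3 the least far. MCM3 stood at 54.8, 65.7 and 51.4 CPM in the black libraries and at 52.9, 65.4 and 66.1 CPM in the white libraries, so that its level in black replicate 1 was 0.908 of the mean of the other 5. MCM7 stood at 71.1, 113 and 80.3 CPM in the black libraries and at 111, 89.9 and 84.0 CPM in the white libraries. Black replicate 1 was still its lowest library and black replicate 2 its highest. White replicate 4, low in most of the 39 genes, was the highest white library for MCM7. The share of the other 5 libraries' mean that remained in black replicate 1 was 0.455 for MCM5, 0.527 for MCM2, 0.696 for MCM4, 0.743 for MCM7, 0.803 for MCM6 and 0.908 for MCM3. The log2 fold changes of the 6 subunits lay between -0.11 and 0.20, none past edgeR's test.

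At the fork itself, PCNA, the sliding clamp that holds the polymerase on DNA, was the most abundant of the 39 genes by mean FPKM over the 6 libraries, at 33.1 ± 11.7 in black-coated skin, against 29.4 ± 2.55 in white-coated skin (SD, n = 3 each). It did not lead within either group: UBE2C averaged 33.6 FPKM in black-coated skin and MCM7 29.7 FPKM in white-coated skin. PCNA stood at 52.0, 125 and 69.2 CPM in black replicates 1, 2 and 3, against 63.9, 76.6 and 79.5 CPM in white replicates 4, 5 and 6. FEN1, the nuclease that trims Okazaki fragments, and GINS2, a subunit of the replicative helicase complex, ranged less widely, from 10.4 to 18.1 and from 6.53 to 12.5 CPM in the black libraries and from 11.3 to 18.9 and from 7.65 to 12.4 CPM in the white libraries. All 3 had overlapping groups.

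The S-phase genes differed among themselves in nucleotide supply. Ribonucleotide reductase, which makes deoxyribonucleotides, joins a large subunit, RRM1, whose protein persists through the cycle, to a small subunit, RRM2, which is made in S phase and then degraded. RRM1 stood at 52.2, 55.9 and 48.3 CPM in the black libraries and at 42.9, 46.6 and 50.7 CPM in the white libraries. It was as high in black replicate 1 as elsewhere, at 1.07 times the mean of the other 5. RRM2 stood at 20.3, 124 and 60.4 CPM in the black libraries and at 39.2, 62.6 and 58.5 CPM in the white libraries. Black replicate 2 exceeded black replicate 1 by 6.12-fold in RRM2 and by 1.07-fold in RRM1, the widest and the narrowest such ratios among the 15 S-phase genes. Per length, the ratio of RRM2 to RRM1 FPKM was 0.415, 2.38 and 1.36 in black replicates 1, 2 and 3, against 0.962, 1.46 and 1.23 in white replicates 4, 5 and 6. TYMS, the thymidylate synthase that supplies dTMP, went with RRM2 rather than RRM1, with 19.8, 72.7 and 33.3 CPM in the black libraries, against 24.6, 38.3 and 31.2 CPM in the white libraries. The log2 fold changes were 0.16 (SE 0.16) for RRM1, 0.35 (SE 0.58) for RRM2 and 0.42 (SE 0.46) for TYMS, each with an edgeR adjusted p of 1.0.

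**Figure D2:**
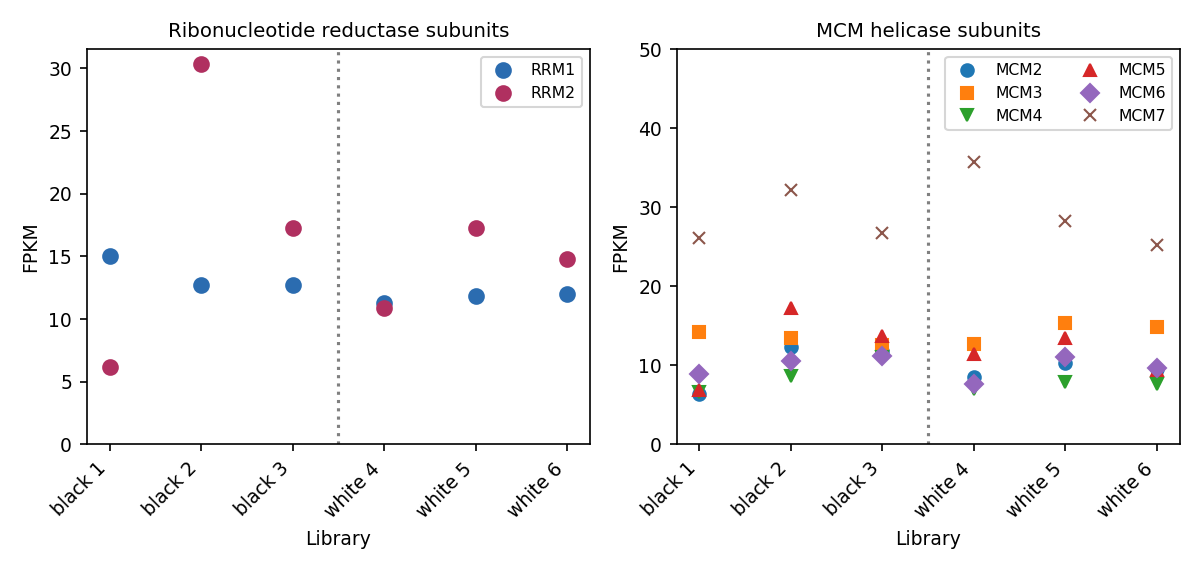
FPKM of the ribonucleotide reductase subunits (left) and of the 6 MCM helicase subunits (right) in black replicates 1 to 3 and, right of the dotted line, white replicates 4 to 6. RRM1 stays between 11.3 and 14.998 FPKM while RRM2 ranges from 6.22 to 30.3, and MCM7 is the highest MCM subunit in every library.

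The mitosis genes ranged more widely between libraries than most of the S-phase genes. Across the 6 libraries the ratio of the highest to the lowest level had a median of 3.82 over the 24 mitosis genes, ranging from 2.12 for BUB1B to 5.13 for UBE2C. Over the 15 S-phase genes it had a median of 2.15, ranging from 1.29 for MCM3 to 6.12 for RRM2, and over all genes tested the median was 1.97. Without black replicate 1 the medians were 2.19 for the mitosis genes, 1.70 for the S-phase genes and 1.64 for all genes tested. Within the white libraries alone they were closer together, at 1.56, 1.45 and 1.34. All 24 mitosis genes and 12 of the 15 S-phase genes were lower in black replicate 1 than in any white library, as were 36.5% of all genes tested. Black replicate 2 was above all white libraries in 21 of the 24 mitosis genes and 13 of the 15 S-phase genes, against 30.8% of all genes.

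Of the markers of cycling cells, MKI67, which encodes the proliferation antigen Ki-67 that coats mitotic chromosomes, stood at 56.9, 138 and 149.6 CPM in black replicates 1, 2 and 3 and at 71.2, 123 and 102 CPM in white replicates 4, 5 and 6. Here black replicate 3, not 2, was the highest library. TOP2A, the topoisomerase that untangles sister chromatids, stood at 45.3, 175 and 114 CPM in the black libraries and at 86.8, 144 and 128 CPM in the white libraries. The black values of both genes enclosed the white range. Per length, MKI67 ranked below TOP2A, at 8.15 ± 3.30 against 13.8 ± 6.62 FPKM in black-coated skin and 6.95 ± 1.85 against 14.95 ± 3.64 FPKM in white-coated skin (SD, n = 3 each).

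The kinase that starts mitosis and its cyclins shared their lowest and highest libraries. CDK1, the mitotic cyclin-dependent kinase, had 8.66, 41.7 and 22.0 CPM in the black libraries and 15.7, 30.5 and 28.3 CPM in the white libraries. CCNB1, the cyclin that activates CDK1 at mitotic entry, had 13.5, 57.1 and 33.7 CPM in the black libraries, against 24.3, 42.2 and 33.1 CPM in the white libraries. CCNA2, the cyclin of S phase and G2, had 13.1, 34.9 and 21.7 CPM in the black libraries and 20.3, 25.6 and 26.9 CPM in the white libraries. In each of these genes black replicate 1 was lowest, white replicate 4 next and black replicate 2 highest. CCNB2, the second B-type cyclin, ranged from 5.11 to 23.7 CPM in the black libraries and from 8.20 to 15.4 CPM in the white libraries. Their log2 fold changes ran from -0.06 to 0.16, smaller in size than their SEs.

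AURKB, PLK1 and BIRC5 had white libraries close together and black libraries far apart. AURKB, the kinase of the chromosomal passenger complex that corrects faulty chromosome attachments, had 5.53, 16.9 and 9.70 CPM in the black libraries and 10.4, 10.7 and 10.6 CPM in the white libraries. PLK1, which acts in spindle assembly and mitotic exit, had 13.6, 36.8 and 22.7 CPM in the black libraries, against 21.0, 25.7 and 21.0 CPM in the white libraries. BIRC5, which encodes survivin, a partner of AURKB in the passenger complex, had 8.66, 33.9 and 19.0 CPM in the black libraries and 18.4, 22.2 and 22.8 CPM in the white libraries. For AURKB the SD was 5.76 CPM in black-coated skin, against 0.144 CPM in white-coated skin, so a mean difference of this size could not be told from the spread within the black group. AURKA, the kinase of the centrosome, ranged from 3.76 to 11.4 CPM in the black libraries and from 4.78 to 7.01 CPM in the white libraries.

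Genes of mitotic exit and cytokinesis had some of the widest ranges. UBE2C, the ubiquitin-conjugating enzyme that works with the anaphase-promoting complex, had 10.005, 51.3 and 25.2 CPM in black replicates 1, 2 and 3, against 18.6, 26.8 and 22.7 CPM in white replicates 4, 5 and 6. By mean FPKM over the 6 libraries it was second among the 39 genes, at 33.6 ± 20.6 FPKM in black-coated skin, against 27.98 ± 5.46 FPKM in white-coated skin (SD, n = 3 each). CDC20, which activates the anaphase-promoting complex, had 10.7, 40.3 and 21.7 CPM in the black libraries and 17.8, 26.3 and 20.6 CPM in the white libraries. PRC1, which bundles microtubules of the midzone, was 5.01 times as high in black replicate 2 as in black replicate 1, and the midzone kinesin KIF23 4.40 times. The spindle and cytokinesis genes KIF20A, KIF11, TPX2, NUSAP1 and ANLN had the same lowest and highest library, with ratios of black replicate 2 to black replicate 1 between 2.97 for TPX2 and 4.73 for NUSAP1. The checkpoint kinases BUB1 and BUB1B had ratios of 3.07 and 2.07, and CENPA, the histone variant that marks centromeres, 4.38.

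CENPE, the kinesin that carries chromosomes to the spindle equator, was the member whose groups did not overlap. It had 3.90, 6.81 and 3.33 CPM in black replicates 1, 2 and 3, against 7.17, 10.9 and 10.98 CPM in white replicates 4, 5 and 6. The log2 fold change was -1.05 (SE 0.37, unadjusted p = 0.0252 and adjusted p = 1.0 by edgeR), so it did not pass, and 4.99% of all genes tested were lower in black-coated skin without overlap. The reads behind it were few, 55, 95 and 77 in the black libraries and 126, 185 and 155 in the white libraries. The 95% counting interval of black replicate 2, from 5.51 to 8.33 CPM, took in white replicate 4. Without black replicate 1 its log2 fold change was -0.94 and without black replicate 2 -1.43, and in neither case was it called. CENPF, a kinetochore protein of late G2 and mitosis, had ranges of 15.7 to 31.8 CPM in the black libraries and 22.9 to 35.7 CPM in the white libraries, which overlapped (log2 fold change -0.33, SE 0.31). Per length, CENPE stood to CENPF at 0.307, 0.253 and 0.212 in black replicates 1, 2 and 3 and at 0.416, 0.356 and 0.478 in white replicates 4, 5 and 6. CENPE was also the least abundant of the 39 genes, at 0.414 ± 0.0937 FPKM in black-coated skin, against 0.856 ± 0.134 FPKM in white-coated skin (SD, n = 3 each).

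**Figure D3:**
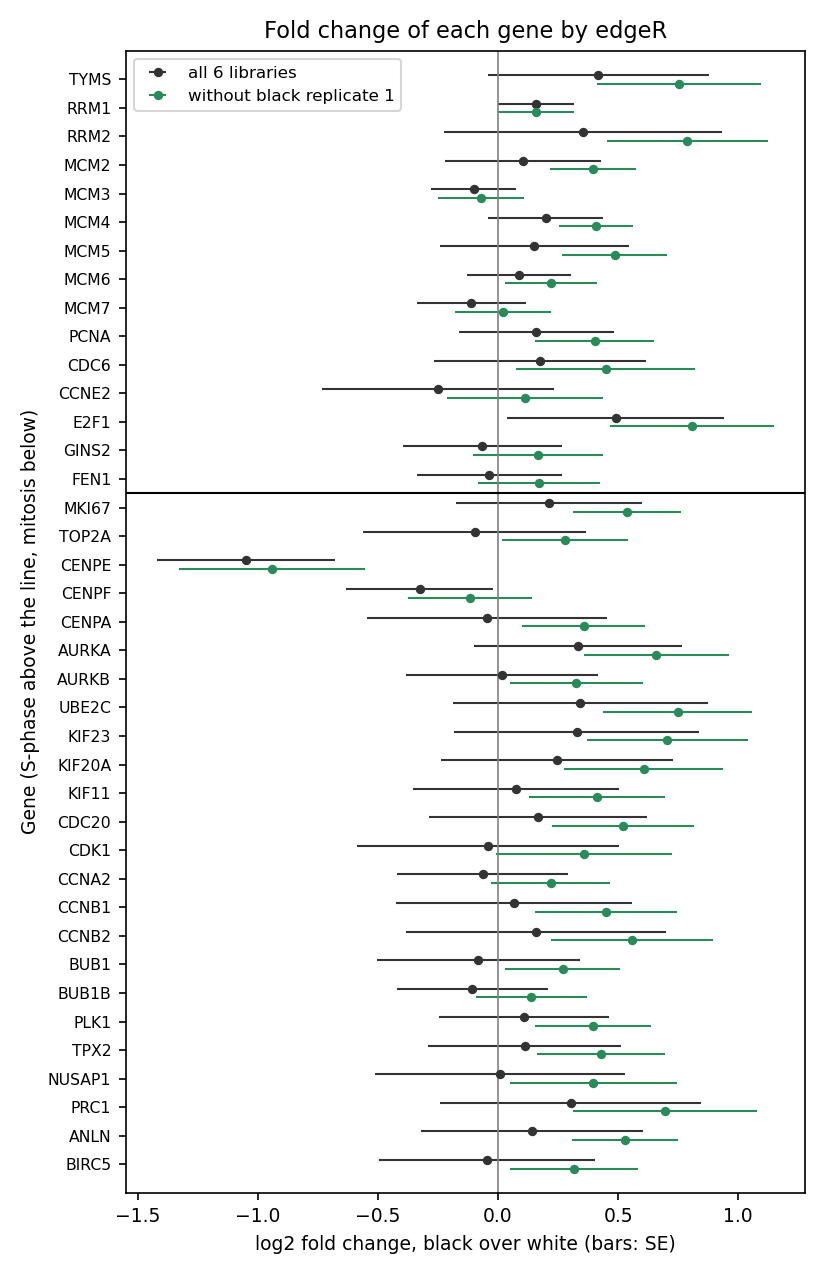
log2 fold change of each gene, black over white, with its SE as bars, from edgeR on all 6 libraries (dark) and without black replicate 1 (green), S-phase genes above the line and mitosis genes under it. None is called in either fit, and CENPE, at -1.05 and -0.94, lies apart from the others.

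S-phase and mitosis genes were then compared within each library. The mean log2 CPM of the S-phase genes, each centred on its own mean over the 6 libraries, was -0.60, 0.54 and 0.11 in black replicates 1, 2 and 3, against -0.23, 0.16 and 0.03 in white replicates 4, 5 and 6. That of the mitosis genes was -1.01, 0.76 and 0.06 in the black libraries and -0.29, 0.30 and 0.18 in the white libraries. The S-phase mean minus the mitosis mean was therefore 0.41, -0.22 and 0.06 log2 units in black replicates 1, 2 and 3, against 0.06, -0.14 and -0.16 log2 units in white replicates 4, 5 and 6. Black replicate 1 had the highest excess of S-phase over mitosis transcripts and black replicate 2 the lowest, and the groups overlapped.

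Averaged over libraries, S-phase minus mitosis was 0.08 ± 0.32 log2 units in black-coated skin, against -0.08 ± 0.12 in white-coated skin (SD, n = 3 each), a difference of 0.16 that was smaller than the black SD. Single black libraries decided it: the difference was -0.0028 without black replicate 1 and 0.31 without black replicate 2. As summed CPM the S-phase genes came to 423, 861 and 602 in the black libraries and 525, 628 and 594 in the white libraries. The mitosis genes summed to 339.8, 1169 and 766 CPM in the black libraries and to 551, 859 and 773 CPM in the white libraries. The ratio of the S-phase sum to the mitosis sum, which also depends on gene length and is compared only between libraries, was 1.25 in black replicate 1, against 0.732 to 0.953 in the other 5.

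**Figure D4:**
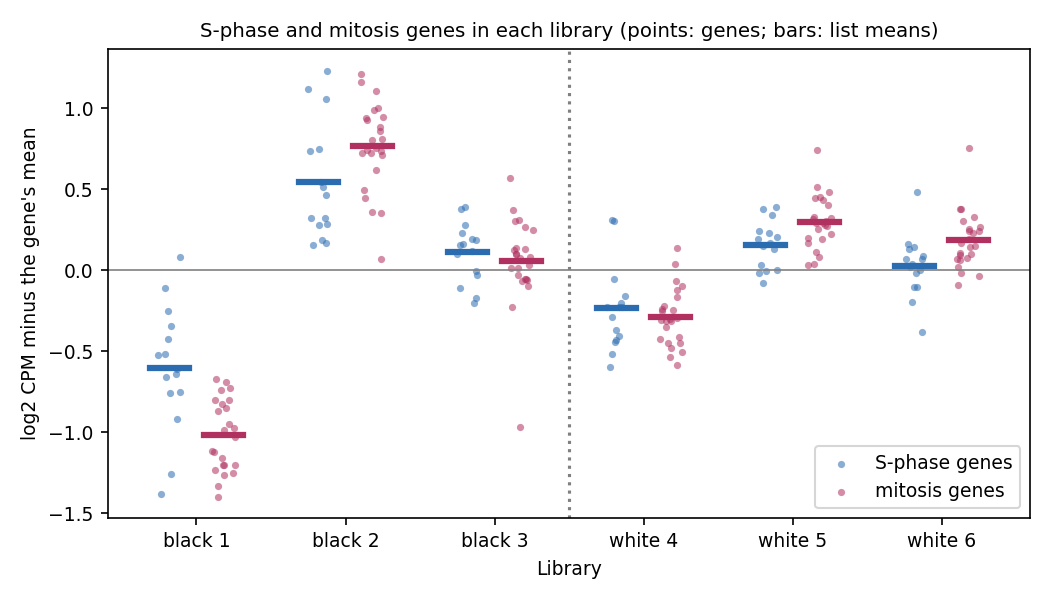
Levels of the 15 S-phase genes (blue) and 24 mitosis genes (red) in each library, as log2 CPM minus each gene's mean over the 6 libraries; points are genes and bars list means, with black libraries left of the dotted line. In black replicate 1 the mitosis genes lie lower than the S-phase genes, in black replicate 2 higher, and the other 4 libraries lie between.

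The hair proteins, set beside the cell cycle genes in each library, were at their lowest in black replicate 1. Hair keratins, the type I and type II keratins of the shaft (19 genes by symbol or description), summed to 2000.2, 46665 and 48621 CPM in black replicates 1, 2 and 3 and to 23647, 20499.8 and 24006 CPM in white replicates 4, 5 and 6. Inner root sheath genes (10 keratins and other proteins) summed to 1187, 18457 and 25008 CPM in the black libraries and to 18888, 20921 and 19174 CPM in the white libraries. Keratin-associated proteins, the sulfur-rich matrix between the keratin filaments, summed to 2495, 38803 and 48575 CPM in the black libraries, against 31228, 23844 and 31645 CPM in the white libraries. From the lowest to the highest of the 6 libraries the sums spanned 24.3-fold for hair keratins, 21.1-fold for inner root sheath genes and 19.5-fold for keratin-associated proteins, beside 3.44-fold for the mitosis genes and 2.04-fold for the S-phase genes. Without black replicate 1 the spans were 2.37-fold for hair keratins, 1.35-fold for inner root sheath genes and 2.04-fold for keratin-associated proteins, beside 2.12-fold for the mitosis genes and 1.64-fold for the S-phase genes, so the wide span of the hair proteins rested on that library. Near-identical copies among these families could share reads, so single keratin levels are uncertain and the sums are used here.

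Black replicate 1 held 0.0612 of the other 5 libraries' mean of hair keratin transcripts, 0.413 of their mitosis transcripts and 0.659 of their S-phase transcripts. Black replicates 2 and 3 had nearly the same hair keratin sum, a ratio of 0.960, although the mitosis sum of black replicate 2 was 1.53 times that of black replicate 3. Hair keratin CPM per mitosis CPM was 5.89, 39.9 and 63.5 in black replicates 1, 2 and 3, against 42.9, 23.9 and 31.1 in white replicates 4, 5 and 6. White replicate 4, lowest of the white libraries in mitosis genes, had a hair keratin sum between those of the other white libraries. As the mean of centred log2 CPM over the 19 hair keratins, which weighs each gene alike, it was the lowest of them. That mean was 0.140, 0.239 and 0.481 in white replicates 4, 5 and 6, so the place of white replicate 4 depended on the measure. No correlation is given, since 1 library lies far from the rest and the animals are not known to be independent.

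**Figure D5:**
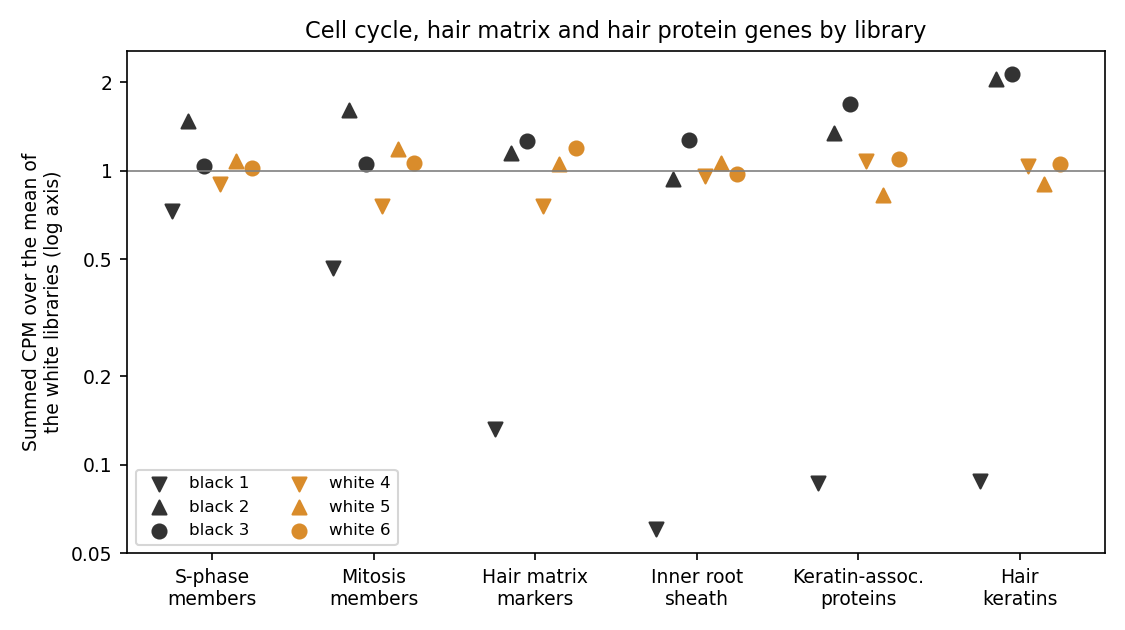
Summed CPM of the S-phase and mitosis genes, hair matrix markers, inner root sheath genes, keratin-associated proteins and hair keratins in each library, divided by the mean of the 3 white libraries (log axis), with black libraries as dark and white libraries as orange symbols. Black replicate 1 lies at 0.727 and 0.467 of the white mean for S-phase and mitosis genes and at 0.088 for hair keratins, while black replicates 2 and 3 lie at 2.05 and 2.14 for hair keratins.

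Markers of the hair matrix, where the dividing cells of a growing follicle sit, were lowest in black replicate 1 as well. The 12 markers, among them the transcription factors MSX2, HOXC13, LEF1 and FOXN1, summed to 198, 1724 and 1885 CPM in black replicates 1, 2 and 3 and to 1135, 1573 and 1787 CPM in white replicates 4, 5 and 6. None of the 12 was at 0 in any library. The 8 markers of the basal epidermis, the other dividing keratinocyte layer, summed to 3112, 6606 and 10309.6 CPM in the black libraries and to 10909.6, 6189.5 and 5253 CPM in the white libraries. Their lowest library was black replicate 1, as it was for most mitosis genes. Their highest libraries, white replicate 4 and black replicate 3, were not those of most mitosis genes.

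Markers of immune cells, which can also divide, were highest in black replicate 1, where 35 of the 39 genes were lowest. Summed over 8 genes each, markers of T and NK cells came to 77.2, 17.8 and 16.5 CPM in the black libraries and 53.8, 28.8 and 25.9 CPM in the white libraries, and those of macrophages to 1108, 502 and 179 CPM in the black libraries and 249.9, 245 and 245 CPM in the white libraries. Of the 8 markers of B and plasma cells, which summed to 344, 181 and 192 CPM in the black libraries and 135, 133 and 143 CPM in the white libraries, CD79B, MZB1, MS4A1 and POU2AF1 were at 0 in 1 or more libraries. The 6 mast cell markers summed to 321, 59.6 and 63.3 CPM in the black libraries and to 123, 74.7 and 46.1 CPM in the white libraries. Markers of endothelium (8 genes, 1197, 648 and 763 CPM in the black libraries and 797, 850.5 and 862 CPM in the white libraries) were highest in black replicate 1 too. So was the sum of sebaceous gland markers (10 genes, 1443, 793 and 1294 CPM in the black libraries and 981, 1149 and 1108 CPM in the white libraries). As a mean of centred log2 CPM over the 9 sebaceous markers tested, however, black replicate 1 (0.257) lay below white replicates 5 (0.412) and 6 (0.327). Suprabasal epidermis markers (7 genes) were lowest in black replicate 1, with 368, 727 and 1169 CPM in the black libraries and 2531.5, 1948 and 1106 CPM in the white libraries. Fibroblast markers ran from 24772 to 147448 CPM in black and from 62964 to 141728 CPM in white libraries. The part of these cell types in the levels of the cell cycle genes was not tested.

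Other genes of replication and mitosis, listed by function and not among the 39, were also lowest in black replicate 1 in most cases. Of 45 further replication genes 0 were called by edgeR, with a median log2 fold change of 0.10 and 31 of 45 higher in black-coated skin, and of 54 further mitosis genes 0 were called, with a median of 0.04 and 33 of 54 higher (all genes tested: 0% called, median 0.02, 53.0% higher). Without black replicate 1 the medians were 0.24 and 0.32, with 39 of the 45 and 44 of the 54 higher in black-coated skin (49.7% of all genes). Without black replicate 2 they were -0.13 and -0.36, with 15 of the 45 and 4 of the 54 higher (51.1% of all genes). Black replicate 1 was lowest in 30 of the 45 and in 45 of the 54. The further replication genes minus the further mitosis genes gave 0.24, -0.19 and 0.12 log2 units in black replicates 1, 2 and 3 and at 0.03, -0.15 and -0.05 in white replicates 4, 5 and 6.

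SMC4, a condensin subunit that compacts mitotic chromosomes, was lower in all black libraries, with 26.2, 33.4 and 33.3 CPM against 41.0, 52.5 and 54.3 CPM in the white libraries (log2 fold change -0.67, SE 0.19, unadjusted p = 0.0102 and adjusted p = 1.0 by edgeR). KIF20B, a kinesin of cytokinesis, had 14.8, 11.4 and 12.3 CPM in the black libraries and 18.3, 19.6 and 13.3 CPM in the white libraries. In these genes, as in CENPE, black replicate 2 was not the highest library. TIPIN, a fork protection protein, had 26.7, 24.0 and 23.2 CPM in the black libraries and 23.8, 16.7 and 14.8 CPM in the white libraries, and CDC45, which joins the MCM ring and GINS in the active helicase, 4.47, 7.96 and 8.23 CPM against 4.89, 5.23 and 5.38 CPM. GINS3, another GINS subunit, named after its values were seen because its groups did not overlap, had 2.41, 5.45 and 5.80 CPM in the black libraries and 6.09, 5.99 and 6.31 CPM in the white libraries (log2 fold change -0.42, SE 0.39). GINS3 was the 1 gene of the 45 without overlap and SMC4 the 1 gene of the 54, while 4.99% of all genes tested were lower in black-coated skin without overlap.

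Of the genes that hold cells in G1 or release them from it, none passed the test either. Of 26 tested, 0 were called by edgeR, 13 were higher on average in black-coated skin, and the median log2 fold change was 0.02 (all genes tested: 0% called, 53.0% higher, median 0.02). Without black replicate 1 the median was 0.075, with 17 of the 26 higher, and without black replicate 2 it was -0.039, with 12 of the 26 higher. GADD45A, a stress-induced growth arrest gene, had 19.0, 23.2 and 28.3 CPM in the black libraries, against 35.1, 30.1 and 30.0 CPM in the white libraries (log2 fold change -0.43, SE 0.21). It was the 1 gene of the 26 without overlap, while 4.99% of all genes tested were lower in black-coated skin without overlap. CDKN1B, the inhibitor p27 that holds CDK2 inactive, had 47.8, 57.9 and 54.2 CPM in the black libraries and 71.7, 56.5 and 71.8 CPM in the white libraries (log2 fold change -0.32, SE 0.17). Black replicate 1 was the lowest library in 11 of the 26, against 30.3% of all genes, and CDK inhibitors stood on both sides, as 3 chosen after their values were seen show. CDKN2B, an inhibitor of CDK4 and CDK6, had 4.40, 33.0 and 56.2 CPM in the black libraries and 29.6, 59.7 and 51.5 CPM in the white libraries. CDKN1A, the inhibitor p21 induced by p53, had 45.3, 275 and 307 CPM in the black libraries, against 195, 164 and 215 CPM in the white libraries. CDKN1C, the inhibitor p57, was highest in black replicate 1, with 26.5, 13.6 and 8.36 CPM in the black libraries and 24.8, 13.04 and 20.7 CPM in the white libraries.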

How the data were processed

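The authors deposited read counts and FPKM values per transcript for 6 libraries, per the file headers. Bowtie2 2.0.6, Cufflinks and HISAT2 appear, with no role stated, in the submitters' processing notes. How reads were counted, on which genome build and with or without strand is not given in the sources used here. Antisense reads therefore cannot be told apart. Rows without a gene name (189 of 53266, at most 0.0675% of a library's summed rows) and of transfer RNA (1776, at most 0.0126%) were left out. The transcript row with the largest total stood for a gene, and FPKM rows of a gene were summed. Of the 39 genes, 15 had several rows, differing by over 10% in 4.

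The count test was edgeR's (version 4.0.16, R 4.3.3, filterByExpr, TMM factors of 0.872 to 1.12, robust quasi-likelihood test, Benjamini-Hochberg adjustment over 15777 genes). The SE is the log2 fold change over the square root of F. DESeq2 1.42.0 and limma 3.58.1 were alternatives, with other scalings, filters, a row mean and each library left out. For list levels, log2 CPM had a prior count of 1. Counting intervals (exact Poisson) cover counting error only.

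Genes and lists were chosen with earlier results of these data known. Values in every library are given for 20 genes fixed by name and for genes without overlap, and of the wider lists for the 2 with the smallest p. Values of MCM3 were added after they were seen, as were GINS3, CDKN2B, CDKN1A and CDKN1C. Absent symbols were looked up by description.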

Additional observations from a re-analysis of the deposited data

How the results depend on the processing

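No paired analysis was possible because the groups share no replicate numbers. Of the 39 genes 0 were called under any setting run, and 0 of the wider replication, mitosis and G1 lists. Over all genes edgeR called 0, DESeq2 78, and leaving out 1 library in turn gave 0 to 16 (16 without black replicate 1, 6 without black replicate 2, 1 without white replicate 4). The median log2 fold change ran from -0.22 to 0.40 for the S-phase genes and from -0.45 to 0.40 for the mitosis genes when libraries were left out, and S-phase minus mitosis from -0.0028 to 0.31. With the wider lists in its place, an alternative added after the data were seen, it was 0.12. The spans without black replicate 1 were likewise added after the data were seen.

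Signs of single genes were unstable. CENPE, CENPF, MCM3, MCM4 and RRM1 kept theirs in every setting. With 1 library left out, log2 fold changes ran as follows among S-phase genes: TYMS -0.24 to 0.75, RRM2 -0.41 to 0.79, MCM2 -0.18 to 0.40, MCM5 -0.27 to 0.49, MCM6 -0.059 to 0.22, MCM7 -0.34 to 0.022, PCNA -0.28 to 0.40, CDC6 -0.048 to 0.45, CCNE2 -0.61 to 0.11, E2F1 -0.069 to 0.81, GINS2 -0.25 to 0.17 and FEN1 -0.22 to 0.17. Among mitosis genes the ranges were MKI67 -0.022 to 0.54, TOP2A -0.59 to 0.28, CENPA -0.50 to 0.36, AURKA -0.055 to 0.66, AURKB -0.47 to 0.33, UBE2C -0.37 to 0.75, KIF23 -0.35 to 0.70, KIF20A -0.36 to 0.61, KIF11 -0.50 to 0.41, CDC20 -0.42 to 0.52, CDK1 -0.69 to 0.36 and CCNA2 -0.49 to 0.22. The remaining ranges were CCNB1 -0.49 to 0.45, CCNB2 -0.39 to 0.56, BUB1 -0.37 to 0.27, BUB1B -0.34 to 0.14, PLK1 -0.32 to 0.40, TPX2 -0.31 to 0.43, NUSAP1 -0.71 to 0.40, PRC1 -0.50 to 0.70, ANLN -0.26 to 0.53 and BIRC5 -0.61 to 0.32. Leaving out black replicate 2 turned 22 of the 39 and leaving out black replicate 1 turned 11. Leaving out white replicates 4, 5 and 6 turned 10, 7 and 5, and leaving out black replicate 3 turned 3.

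Other settings turned genes whose edgeR log2 fold change on all 6 libraries was at most 0.17 in size (CDC20). AURKB and NUSAP1 gave -0.019 and -0.047 with library totals and -0.0003 and -0.015 with upper quartile scaling. limma-voom gave AURKB -0.13, KIF11 -0.093, CDC20 -0.013, CCNB1 -0.12, PLK1 -0.0038, NUSAP1 -0.23 and ANLN -0.031. On log2(FPKM + 1) the values were FEN1 0.0005, AURKB -0.054, KIF11 -0.033, CCNB1 -0.043, CCNB2 -0.019, NUSAP1 -0.19 and ANLN -0.012, and on log2(FPKM + 0.1) FEN1 0.0013, AURKB -0.091, KIF11 -0.057, CCNB1 -0.055, CCNB2 -0.045, NUSAP1 -0.22 and ANLN -0.036. The median of the mitosis genes was then -0.11 with limma-voom and -0.038 and -0.056 on the FPKM scales. The cause was not tested.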
